A study of Mus musculus with 8 samples.

Results

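The 41 genes described here encode NRF2, its inhibitor KEAP1 and the enzymes of glutathione and redox defence. They were taken from the expression table by gene symbol, 41 of 24421 genes, and all 41 passed the filter on low values. The RNA came from back skin of 4 C57BL/6J mice that carried the ROSA<mTmG> reporter and Tyr:Cre<ERT2> (genotype label ROSA<mTmG> +; Cre+). In that reporter a cell makes tdTomato until Cre acts and EGFP afterwards, and the Cre is driven by tyrosinase regulatory sequence and activated by tamoxifen, so EGFP marks the melanocyte lineage. All mice received tamoxifen daily for 10 days from day 21 and were depilated on day 50, and back skin was taken on day 54. In between, mice 3 and 4 had 3 days of UVB (150 mJ/cm2), while mice 1 and 2 had normal light as a mock treatment. Each mouse yielded 1 library of sorted EGFP+ cells and 1 of tdTomato+ cells, so there are 4 groups of 2 libraries: UV EGFP+, no UV EGFP+, UV tdTomato+ and no UV tdTomato+. Cells in which Cre did not act remain tdTomato+, and the tdTomato+ sort pools all other skin cells.

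NRF2 is a transcription factor that KEAP1 holds in the cytoplasm and feeds to degradation. When oxidants or electrophiles modify KEAP1, NRF2 accumulates, pairs with small MAF proteins and binds antioxidant response elements in genes for glutathione synthesis, thioredoxin reduction, conjugation and quinone reduction. Glutathione and thioredoxin pass electrons from NADPH to peroxidases. In skin these enzymes act against oxidants formed by UV light, and in melanocytes also against quinones and peroxide made during melanin synthesis.

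The libraries held 11186363 to 16711981 reads and 11186 to 17076 detected genes. Values are normalized reads, meaning reads divided by a size factor per library, and differences are on the scale of log2(normalized reads + 1), which understates the change of genes with few reads. The sort matched its labels, since all 8 melanocyte markers were higher and all 8 keratinocyte markers lower in EGFP+ cells. The melanocyte markers summed to 523784 to 615877 normalized reads in EGFP+ libraries and 2616 to 44454 in tdTomato+ libraries, and the keratinocyte markers to 1038 to 1287 and 246776 to 345572. Single markers at 0 in EGFP+ libraries were Mc5r, Tek, Des, Cd3e, Cidec and 4 globin genes. The globin genes were also at 0 in tdTomato+ libraries. Sebocyte markers together summed to 1367 to 1939 in EGFP+ and 1778.5 to 11263 in tdTomato+ libraries. Adipocyte markers summed to 729 to 1257 in EGFP+ and 162 to 2654.5 in tdTomato+ libraries. Schwann cell markers summed to 8126.5 to 13603 in EGFP+ and 2087 to 3717.5 in tdTomato+ libraries. In that list 2 of 4 were called higher and 1 lower in EGFP+ cells. The libraries of mouse 1 stood apart: Xist had 477 and 1103 reads in them and at most 4 elsewhere, and 4 Y-linked genes had at most 9 reads in them and at least 2253 elsewhere. Mouse 1 is 1 of 2 mice without UV, so every result that rests on it is given without it where that changes a call.

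An antioxidant response element has the core TGACNNNGC, which was searched on both strands from 250 bases before to 50 bases after the transcript start. RefSeq promoters on GRCm38.p6 were at hand for 35 of the 41 genes, and 10 of them (28.6%) held the core, against 13.99% of 27025 genes. Hmox1, Gclc, Gsr, Prdx6, Gsta4 and Sod3 had no promoter at hand and were not searched. The core was found for Gsta3, Nfe2l2, Srxn1, Gstm5, Gclm, Prdx1, Mgst1, Txnrd1, Sod1 and G6pdx. Of the 6 that differed between EGFP+ and tdTomato+ cells over all mice, the core of Mgst1 lies in an exon of its own gene. Windows of the other 5 are shown, to let the bases around the core be compared, 5′ to 3′ on the strand of the gene with the core in capitals. Cores on the opposite strand read as GCNNNGTCA.
Nfe2l2, chr2:75704875-75704913, minus strand: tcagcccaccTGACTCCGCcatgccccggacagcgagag
Txnrd1, chr10:82859094-82859142, plus strand: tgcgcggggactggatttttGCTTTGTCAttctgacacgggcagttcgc
Gclm, chr3:122245403-122245451, plus strand: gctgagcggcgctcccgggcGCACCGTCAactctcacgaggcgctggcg
Gstm5, chr3:107895792-107895840, plus strand: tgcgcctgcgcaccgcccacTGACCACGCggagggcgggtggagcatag
Gsta3, chr1:21240444-21240492, plus strand: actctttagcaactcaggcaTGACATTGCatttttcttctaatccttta
The cores begin at positions -240 (Nfe2l2) to -42 (Gstm5) relative to the RefSeq start of the transcript, and in GENCODE M21 none lies in an exon of its own gene. Those of Gclm and Gsta3 are intergenic and that of Txnrd1 is intronic, between alternative starts. Those of Nfe2l2 and Gstm5 lie in exons of E030042O20Rik and 4933431E20Rik, both on the opposite strand, and the end of the Gstm5 window reaches into the first exon of Gstm5. Nfe2l2 and Txnrd1 were higher in EGFP+ cells, and Gclm, Gstm5, Mgst1 and Gsta3 were lower. A match to these letters is not evidence of binding. For Nfe2l2 the bases after the RefSeq start did not match the start of a GENCODE M21 transcript.

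Melanocytes and the other skin cells differed in most of these genes, and in both directions. Over all 4 mice, 26 of the 41 genes (63.4%) passed limma's test at adjusted p under 0.05, against 28.9% of the 18070 genes tested. For 8 genes every EGFP+ library was above every tdTomato+ library (9.8% of all genes tested), and for 13 every one was below (18%). By the test, in EGFP+ cells 11 were higher (9.66% of all genes tested) and 15 lower (19.2%). The genes are expressed well above most others, with a median of 1658 normalized reads against 116 over all genes tested. Their median difference was -0.01 log2 units, against -0.33 over all genes tested. Without mouse 1, 15 of them passed, 6 higher and 9 lower, and the 11 that no longer did were Nqo1, Gclc, Gclm, Prdx3, Prdx6, Gpx3, Gpx4, Gpx8, Gsta3, Gstm1 and Gstm2 (adjusted p of 0.056 to 0.235). Quantile normalization moved the median difference of all genes up by 0.57 log2 units, and rescaling without the 20 most abundant genes moved it up by 0.25. The split of the redox genes was 13 higher and 14 lower with quantile normalization and 17 higher and 13 lower with the rescaling. No redox gene that had passed changed direction under either scaling. The split of all genes moved the same way, from 1746 higher and 3471 lower in the main fit. It became 2857 higher and 2672 lower with quantile normalization, and 2633 higher and 2877 lower with the rescaling. In bulk samples, fewer cells of a type and less RNA per cell cannot be told apart.

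**Figure D1:**
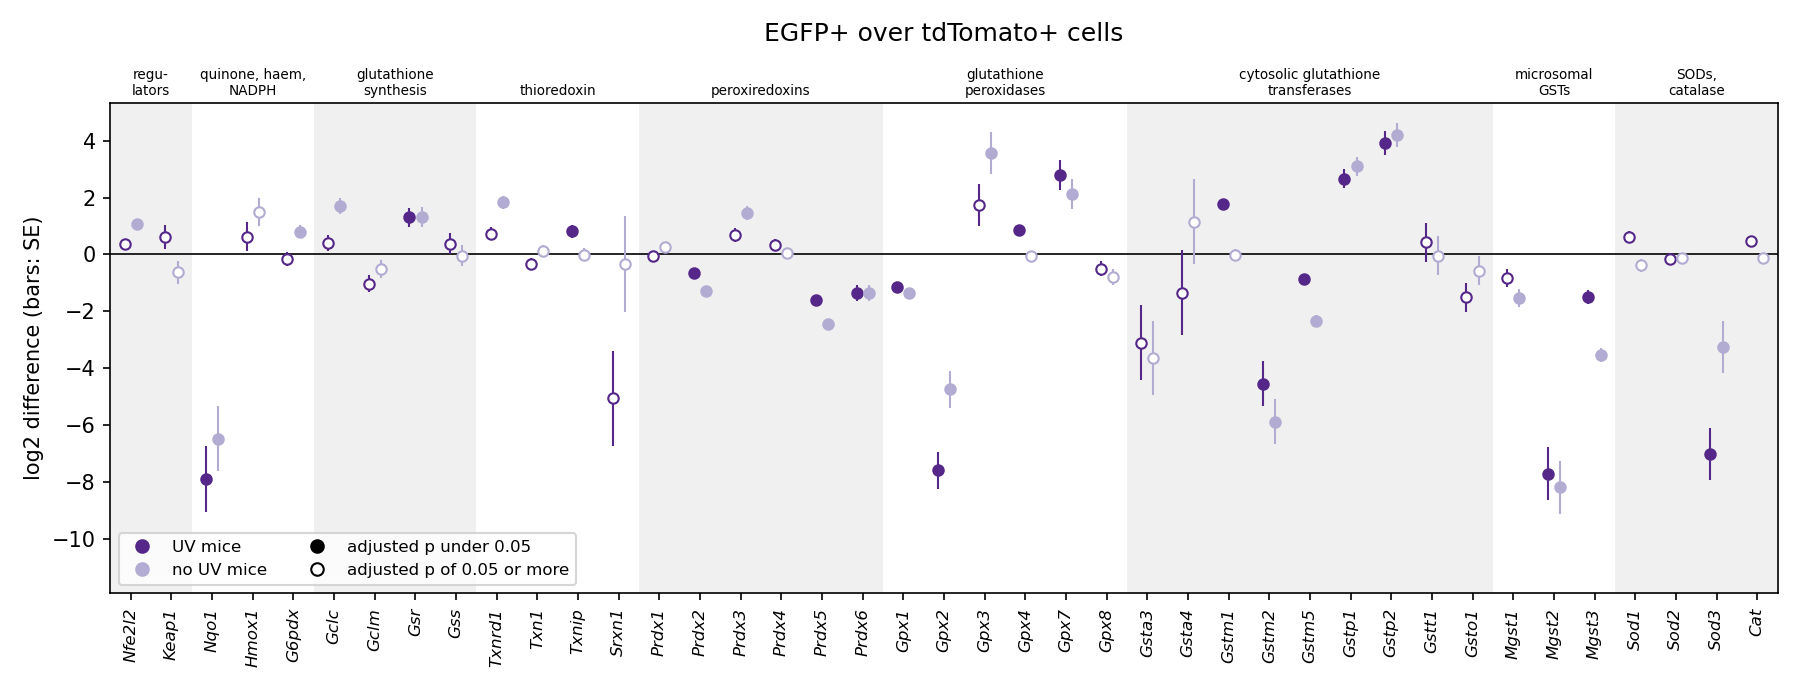
Log2 differences of EGFP+ over tdTomato+ cells (vertical axis, bars are SE) for the 41 redox genes grouped by role, with UV mice dark and mice without UV pale. Filled points passed limma's test at adjusted p under 0.05. Gstp2 lies highest, at 3.92 in UV mice and 4.22 in mice without UV, and Nqo1, Gpx2, Mgst2 and Gstm2 lie at -4.54 or lower in both arms.

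At the head of the pathway, Nfe2l2 was higher in EGFP+ cells and Keap1 did not pass the test. Nfe2l2, which encodes NRF2, had 5024 and 4943 normalized reads in UV EGFP+ and 5702 and 4942 in no UV EGFP+ libraries, against 3618 and 4158 in UV tdTomato+ and 2507 and 2508 in no UV tdTomato+ libraries. Every EGFP+ library was above every tdTomato+ library, and the difference was 0.72 ± 0.11 (SE) log2 units (limma adjusted p = 0.00189). Keap1 averaged 251 ± 91.8 normalized reads in EGFP+ cells and 251 ± 88.3 in tdTomato+ cells (SD, n = 4 each). Its difference was -0.01 ± 0.30, with a 95% interval of -0.69 to 0.66, and it turned positive under both scalings, at 0.17 and 0.25.

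Of the 14 further regulators of NRF2 on a fixed list, 3 were higher and 1 lower in EGFP+ cells, beside 9.66% and 19.2% of all genes tested. Sqstm1, the autophagy receptor p62 that binds KEAP1, had the smallest p of the list and averaged 26040 ± 1679 normalized reads in EGFP+ cells and 4335 ± 1072 in tdTomato+ cells (SD, n = 4 each; 2.62 ± 0.13, limma adjusted p = 4.16e-06). Bach1, which encodes a repressor that competes with NRF2 for its elements, averaged 229 ± 46.6 normalized reads in EGFP+ cells and 723 ± 200.1 in tdTomato+ cells (-1.64 ± 0.22, limma adjusted p = 0.000846). Ppargc1a, a coactivator of mitochondrial genes, averaged 316 ± 264 normalized reads in EGFP+ cells and 25.3 ± 14.4 in tdTomato+ cells (3.47 ± 0.50, limma adjusted p = 0.00114). The Ppargc1a call was lost without mouse 1 (adjusted p = 0.0647).

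Among the genes that reduce quinones, break down haem and supply NADPH, Nqo1 showed the widest gap. Nqo1, the quinone reductase used as a standard readout of NRF2, had 36.9 and 1.08 normalized reads in UV EGFP+ and 15.8 and 8.56 in no UV EGFP+ libraries, against 1572 and 2827 in UV tdTomato+ and 993 and 1272 in no UV tdTomato+ libraries. The groups did not overlap, and the difference was -7.18 ± 0.82 log2 units (limma adjusted p = 0.000328; 0.0748 without mouse 1). Hmox1, haem oxygenase, averaged 688 ± 300.0 normalized reads in EGFP+ cells and 383 ± 254 in tdTomato+ cells (SD, n = 4 each), and its libraries overlapped. Its difference of 1.06 ± 0.36 did not pass (limma adjusted p = 0.0558), though it did under the stricter filter, both scalings, edgeR and DESeq2. G6pdx, the first enzyme of the NADPH-making pentose phosphate route, had 1015 and 990.5 normalized reads in UV EGFP+ and 785 and 920.3 in no UV EGFP+ libraries, against 1249 and 1005 in UV tdTomato+ and 499 and 479.6 in no UV tdTomato+ libraries. The EGFP+ and tdTomato+ libraries of G6pdx overlapped in UV mice and were apart in mice without UV, where the difference was 0.80 ± 0.23 (limma adjusted p = 0.0449). That call was lost with mouse as a block (adjusted p = 0.0697), without mouse 1 (0.101) and in 5 of 8 fits with a library left out, at most 0.158 (no UV EGFP replicate 2 left out).

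The 2 subunits of the enzyme that begins glutathione synthesis went opposite ways. Gclc, the catalytic subunit, had 645 and 579.8 normalized reads in UV EGFP+ and 985 and 980.2 in no UV EGFP+ libraries, against 384 and 554 in UV tdTomato+ and 305 and 293 in no UV tdTomato+ libraries. EGFP+ libraries were all above tdTomato+ libraries, by 1.06 ± 0.20 log2 units (limma adjusted p = 0.00417; 0.0653 without mouse 1). Gclm, the modifier subunit that raises its activity, had 594 and 793 normalized reads in UV EGFP+ and 724 and 552 in no UV EGFP+ libraries, against 1228 and 1589 in UV tdTomato+ and 717 and 1122 in no UV tdTomato+ libraries. The lowest tdTomato+ library lay within the EGFP+ range, and the difference was -0.76 ± 0.22 (limma adjusted p = 0.0306). The Gclm call did not hold in 6 of 8 leave-one-out fits (highest adjusted p 0.137, without UV tdTomato replicate 2) and when values were rescaled without the 20 most abundant genes. Gsr, glutathione reductase, had 1248 and 1472 normalized reads in UV EGFP+ and 1104 and 781 in no UV EGFP+ libraries, against 519.5 and 579.6 in UV tdTomato+ and 516 and 268 in no UV tdTomato+ libraries. All EGFP+ values lay above all tdTomato+ values, and the difference was 1.31 ± 0.25 (limma adjusted p = 0.00452). Gss, which completes glutathione, averaged 686 ± 326 normalized reads in EGFP+ cells and 588 ± 186 in tdTomato+ cells, and its libraries overlapped (limma adjusted p = 0.649).

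In the thioredoxin system the reductase was higher in EGFP+ cells and thioredoxin itself did not pass the test. Txnrd1, which reduces thioredoxin with NADPH, had 1611 and 2151 normalized reads in UV EGFP+ and 3255 and 3216 in no UV EGFP+ libraries, against 1109.6 and 1145 in UV tdTomato+ and 1053 and 776 in no UV tdTomato+ libraries. The groups were apart by 1.28 ± 0.16 log2 units (limma adjusted p = 0.000618). Txn1, thioredoxin, averaged 9330.0 ± 399 normalized reads in EGFP+ cells and 10335 ± 2610.2 in tdTomato+ cells. The difference was -0.11 ± 0.14 (limma adjusted p = 0.605) and turned positive under both scalings (0.22 and 0.15). Txnip, which binds thioredoxin and blocks it, had 2327 and 1638 normalized reads in UV EGFP+ and 2415 and 2482 in no UV EGFP+ libraries, against 1218 and 1008 in UV tdTomato+ and 2204 and 2733 in no UV tdTomato+ libraries. In UV mice both EGFP+ libraries were above both tdTomato+ libraries by 0.82 ± 0.23 (limma adjusted p = 0.0438), and over all mice the libraries overlapped (adjusted p = 0.101). The UV mouse call of Txnip did not hold in 7 of 8 leave-one-out fits, and its difference ran from 0.56 to 1.07 over all alternatives. Those fits include the absence of each no UV library. The no UV libraries are outside that comparison and enter it only through the shared estimate of the spread. Srxn1, sulfiredoxin, which repairs over-oxidized peroxiredoxins, had 322 and 2.16 normalized reads in UV EGFP+ and 305 and 193 in no UV EGFP+ libraries, against 1013 and 1116 in UV tdTomato+ and 389 and 237 in no UV tdTomato+ libraries. The 2 UV EGFP+ libraries did not share a level, and the difference over all mice was -2.69 ± 1.19 (limma adjusted p = 0.131). In UV mice the Srxn1 difference of -5.06 ± 1.68 passed with mouse as a block (adjusted p = 0.0411) and not without it (0.0743).

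Peroxiredoxins reduce peroxides through thioredoxin, and of the 6 genes 1 was higher and 3 were lower in EGFP+ cells. Prdx5, found in several compartments, had 1558 and 1243 normalized reads in UV EGFP+ and 1001 and 1009.7 in no UV EGFP+ libraries, against 4506 and 3959 in UV tdTomato+ and 5380.5 and 5585 in no UV tdTomato+ libraries. Its groups lay far apart (-2.02 ± 0.13, limma adjusted p = 1.71e-05), and 24.2% of its 50-base windows also occur in the overlapping gene Trmt112, so its count is uncertain. Prdx6, which uses glutathione in place of thioredoxin, had 3596 and 4043 normalized reads in UV EGFP+ and 3702 and 2939.8 in no UV EGFP+ libraries, against 7080.3 and 13455 in UV tdTomato+ and 8592 and 8439.6 in no UV tdTomato+ libraries. The Prdx6 groups did not overlap (-1.36 ± 0.20, limma adjusted p = 0.00122; 0.0945 without mouse 1). Prdx2, a cytosolic form, had 5923 and 6368 normalized reads in UV EGFP+ and 3947 and 3746 in no UV EGFP+ libraries, against 9645 and 9799.6 in UV tdTomato+ and 10738 and 8231 in no UV tdTomato+ libraries. Its groups were also apart, by -0.98 ± 0.12 (limma adjusted p = 0.000445), and it shares 18.2% of its windows with other genes. Prdx3, the mitochondrial form, had 2688 and 3435 normalized reads in UV EGFP+ and 2567 and 1978 in no UV EGFP+ libraries, against 1632 and 2226 in UV tdTomato+ and 784 and 861 in no UV tdTomato+ libraries. UV tdTomato replicate 2 reached into the EGFP+ range of Prdx3, and the difference was 1.06 ± 0.17 (limma adjusted p = 0.00203; 0.0854 without mouse 1). Prdx1 averaged 46953 ± 5882 normalized reads in EGFP+ cells and 44834 ± 11238 in tdTomato+ cells (0.09 ± 0.10, limma adjusted p = 0.524), and Prdx4, of the endoplasmic reticulum, also did not pass (0.19 ± 0.14, adjusted p = 0.346).

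All 6 glutathione peroxidases differed between the sorted populations, 3 in each direction. Gpx2, an epithelial form and NRF2 target, had 13.4 and 46.3 normalized reads in UV EGFP+ and 16.6 and 20.9 in no UV EGFP+ libraries, against 6104 and 4126 in UV tdTomato+ and 798 and 344 in no UV tdTomato+ libraries. No EGFP+ library reached the lowest tdTomato+ library, and the difference was -6.16 ± 0.46 log2 units (limma adjusted p = 3.57e-05), with 18.9% of its 50-base windows shared with Gpx2-ps1. Gpx1, the abundant cytosolic form, had 17385 and 16639.8 normalized reads in UV EGFP+ and 14787 and 11217 in no UV EGFP+ libraries, against 36568 and 37897 in UV tdTomato+ and 33074 and 33486 in no UV tdTomato+ libraries. The Gpx1 groups did not overlap (-1.25 ± 0.11, limma adjusted p = 8.2e-05). Gpx8, of the endoplasmic reticulum, had 957 and 597 normalized reads in UV EGFP+ and 771 and 768 in no UV EGFP+ libraries, against 1009 and 1139 in UV tdTomato+ and 1447 and 1233 in no UV tdTomato+ libraries. Its groups were apart by a small margin (-0.65 ± 0.19, limma adjusted p = 0.0343), and the call did not hold in 6 of 8 leave-one-out fits (highest adjusted p 0.125, without UV tdTomato replicate 2) and under rescaling without the 20 most abundant genes.

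Gpx3, Gpx7 and Gpx4 were the glutathione peroxidases higher in EGFP+ cells. Gpx3, the secreted form, had 1766 and 612 normalized reads in UV EGFP+ and 465 and 402 in no UV EGFP+ libraries, against 305 and 323 in UV tdTomato+ and 79.2 and 15.7 in no UV tdTomato+ libraries. Every EGFP+ library was above every tdTomato+ library (2.65 ± 0.52, limma adjusted p = 0.00577), and the call did not hold in 4 of 8 leave-one-out fits (highest adjusted p 0.0717, without no UV EGFP replicate 1). Gpx7, of the endoplasmic reticulum, had 439.6 and 596 normalized reads in UV EGFP+ and 420.0 and 432 in no UV EGFP+ libraries, against 59.6 and 89 in UV tdTomato+ and 158 and 60 in no UV tdTomato+ libraries. The Gpx7 groups lay apart by 2.46 ± 0.37 (limma adjusted p = 0.0015). Gpx4, which reduces lipid peroxides in membranes and guards against ferroptosis, had 13475 and 11363 normalized reads in UV EGFP+ and 11534 and 9498 in no UV EGFP+ libraries, against 6852 and 6856 in UV tdTomato+ and 10503 and 11234 in no UV tdTomato+ libraries. Its libraries overlapped in mice without UV, and the difference over all mice was 0.40 ± 0.11 (limma adjusted p = 0.0274). The Gpx4 call did not hold in 6 of 8 leave-one-out fits (highest adjusted p 0.0948, without UV tdTomato replicate 1), and 51.4% of its 50-base windows also occur in the pseudogene Gpx4-ps2.

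Glutathione transferases attach glutathione to electrophiles, and the pi class led the cytosolic ones in EGFP+ cells. Gstp1 had 97729 and 55757 normalized reads in UV EGFP+ and 54309 and 50279 in no UV EGFP+ libraries, against 16280.0 and 8297 in UV tdTomato+ and 6552 and 5671 in no UV tdTomato+ libraries. The lowest EGFP+ library was well above the highest tdTomato+ library, and the difference was 2.88 ± 0.24 log2 units (limma adjusted p = 6.33e-05). Per kilobase of exon it held the highest level of the 41 genes in EGFP+ cells, at 41679 normalized reads per kilobase, and ranked 4 in tdTomato+ cells at 5943. Gstp2, its neighbour on chromosome 19, had 1482 and 2736 normalized reads in UV EGFP+ and 842 and 1069.6 in no UV EGFP+ libraries, against 102 and 172 in UV tdTomato+ and 56.7 and 44.2 in no UV tdTomato+ libraries. The Gstp2 groups were far apart (4.07 ± 0.30, limma adjusted p = 3.26e-05). In GENCODE M21, 51.0% of the 50-base windows of Gstp1 also occur in Gstp2 and 44.7% of those of Gstp2 in Gstp1, so the division of reads between them is uncertain.

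The mu class genes of chromosome 3 were split. Gstm1 had 11524 and 8412 normalized reads in UV EGFP+ and 7891 and 9820.4 in no UV EGFP+ libraries, against 2682 and 3134 in UV tdTomato+ and 8831 and 8948 in no UV tdTomato+ libraries. Its populations overlapped in mice without UV and were apart in UV mice. Over all mice the difference was 0.87 ± 0.14 (limma adjusted p = 0.00198), and 0.95 without mouse 1, where the call was lost. In UV mice it was 1.76 ± 0.20 (limma adjusted p = 0.00076). The UV mouse difference does not use mouse 1 and stayed at 1.76 without it. That call was lost too, with fewer libraries in the shared estimate of the spread. Gstm2 had 281 and 35.6 normalized reads in UV EGFP+ and 112 and 67.5 in no UV EGFP+ libraries, against 2152 and 2587 in UV tdTomato+ and 5377 and 4961 in no UV tdTomato+ libraries. No EGFP+ library came near the tdTomato+ libraries (-5.21 ± 0.55, limma adjusted p = 0.000231; 0.07 without mouse 1). Gstm5 had 2043 and 1706 normalized reads in UV EGFP+ and 1235 and 1443 in no UV EGFP+ libraries, against 3519.5 and 3340.1 in UV tdTomato+ and 6576 and 6779.7 in no UV tdTomato+ libraries. Its groups did not overlap either (-1.60 ± 0.13, limma adjusted p = 4.95e-05). Windows shared with other genes made up 19.9% of Gstm1, 8.3% of Gstm2 and 12.2% of Gstm5.

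Of the remaining cytosolic transferases, Gsta3 passed the test on few reads. Gsta3 had 0 and 0 normalized reads in UV EGFP+ and 2.5 and 4.75 in no UV EGFP+ libraries, against 24.7 and 1.85 in UV tdTomato+ and 99.8 and 29.97 in no UV tdTomato+ libraries. UV tdTomato replicate 2 fell within the EGFP+ range (-3.37 ± 0.93, limma adjusted p = 0.0261), and the call did not hold in 5 of 8 leave-one-out fits (highest adjusted p 0.107, without no UV EGFP replicate 1) and under quantile normalization. Gsto1, of the omega class, averaged 2809 ± 721 normalized reads in EGFP+ cells and 6573 ± 4291 in tdTomato+ cells (-1.03 ± 0.36, limma adjusted p = 0.0616), and passed with mouse as a block (adjusted p = 0.00327). Gsta4 and Gstt1 did not pass (adjusted p = 0.956 and 0.795). Replicates of Gsta4 differed more than the groups did, with 2522 and 91.6 normalized reads in UV EGFP+ and 1556 and 137 in no UV EGFP+ libraries, against 1444 and 1039 in UV tdTomato+ and 142 and 304 in no UV tdTomato+ libraries.

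The 3 microsomal transferases, membrane enzymes that also reduce lipid peroxides, were all lower in EGFP+ cells. Mgst2 had 0.839 and 1.08 normalized reads in UV EGFP+ and 2.5 and 0 in no UV EGFP+ libraries, against 419 and 393 in UV tdTomato+ and 509.6 and 577 in no UV tdTomato+ libraries. Those are 2 reads against 881 in UV mice, a ratio of tdTomato+ to EGFP+ cells of 430.4 (95% counting interval 118.8 to 3559), and 3 reads against 925 in mice without UV, a ratio of 403.4 (137.6 to 1960). Mgst2 was near the detection limit in every EGFP+ library (-7.94 ± 0.65, limma adjusted p = 6.47e-05). Mgst3 had 468 and 648 normalized reads in UV EGFP+ and 371 and 346 in no UV EGFP+ libraries, against 1627 and 1474 in UV tdTomato+ and 3877 and 4453 in no UV tdTomato+ libraries. Its groups were apart in both treatment arms (-2.51 ± 0.17, limma adjusted p = 1.9e-05). Mgst1 had 2435 and 2055 normalized reads in UV EGFP+ and 2099 and 1434 in no UV EGFP+ libraries, against 3478 and 4454 in UV tdTomato+ and 3624 and 6869.6 in no UV tdTomato+ libraries. The Mgst1 groups did not overlap (-1.17 ± 0.23, limma adjusted p = 0.00534), and the call was lost without UV tdTomato replicate 2 (adjusted p = 0.0659) and in 1 more of the 8 fits, without no UV EGFP replicate 2.

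Among superoxide dismutases, which turn superoxide into hydrogen peroxide, and catalase, which breaks that peroxide down, Sod3 differed. Sod3, the extracellular enzyme, had 0 and 1.08 normalized reads in UV EGFP+ and 16.6 and 10.5 in no UV EGFP+ libraries, against 166 and 209.6 in UV tdTomato+ and 185 and 97.1 in no UV tdTomato+ libraries. All EGFP+ libraries lay below all tdTomato+ libraries (-5.14 ± 0.65, limma adjusted p = 0.000606). In UV mice Sod3 rested on 1 read against 407, a ratio of tdTomato+ to EGFP+ cells of 397.6 (95% counting interval 70.97 to 15744), and in mice without UV the call (-3.25 ± 0.92, limma adjusted p = 0.0409) was lost in 12 of 19 alternatives, among them mouse as a block (0.0702) and the absence of mouse 1 (0.193). Sod1, Sod2 and Cat did not pass over all mice (limma adjusted p = 0.624, 0.432 and 0.369), and Cat averaged 2374 ± 327 normalized reads in EGFP+ cells and 2105 ± 306 in tdTomato+ cells.

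**Figure D2:**
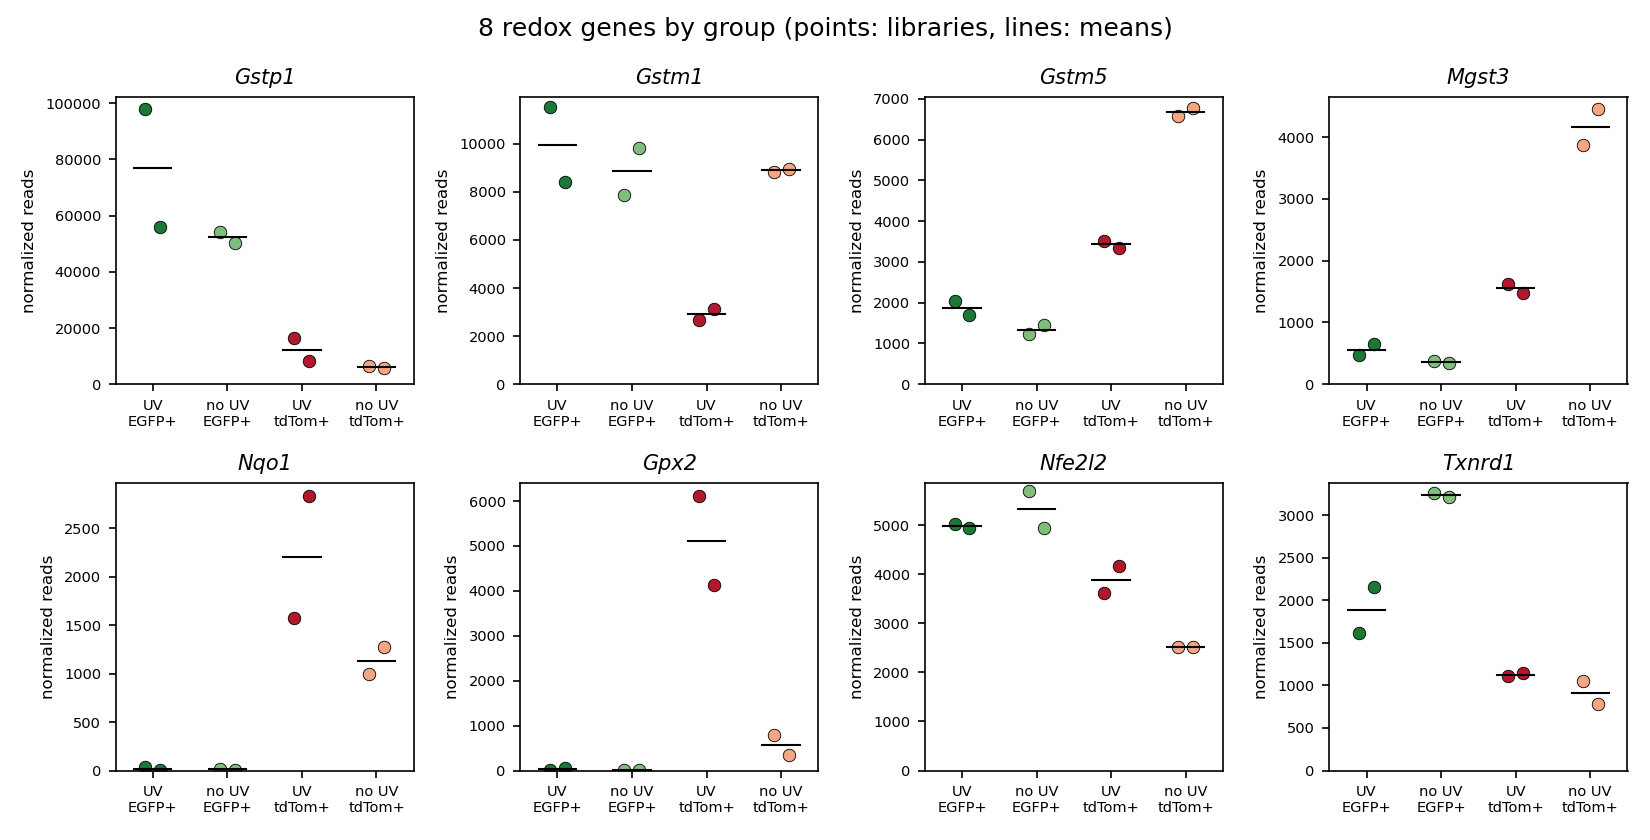
Normalized reads of 8 redox genes on linear axes, with 1 point a library and a line for the mean of each group of 2. Gstp1 is high in all 4 EGFP+ libraries, Nqo1 and Gpx2 are near the bottom in all 4, and Gstm1 is low in the 2 UV tdTomato+ libraries alone.

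Levels per kilobase of exon were ranked by the mean over the 4 libraries of a population, both arms together. Gstp1, Prdx1, Gpx1, Txn1, Gpx4 and Gstm1 were the 6 highest of the 41 genes in EGFP+ and in tdTomato+ cells. Prdx1 ranked 2 in both, at 15429.9 normalized reads per kilobase in EGFP+ cells and 14734 in tdTomato+ cells. Gpx1 ranked 3 in EGFP+ cells at 10414 and 1 in tdTomato+ cells at 24466. The authors' deposited table called 25 of the 41 genes in the same comparison, 24 of which were also called here. In that table Gsto1 was called and Gpx4 and Gstm1 were not.

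**Figure D3:**
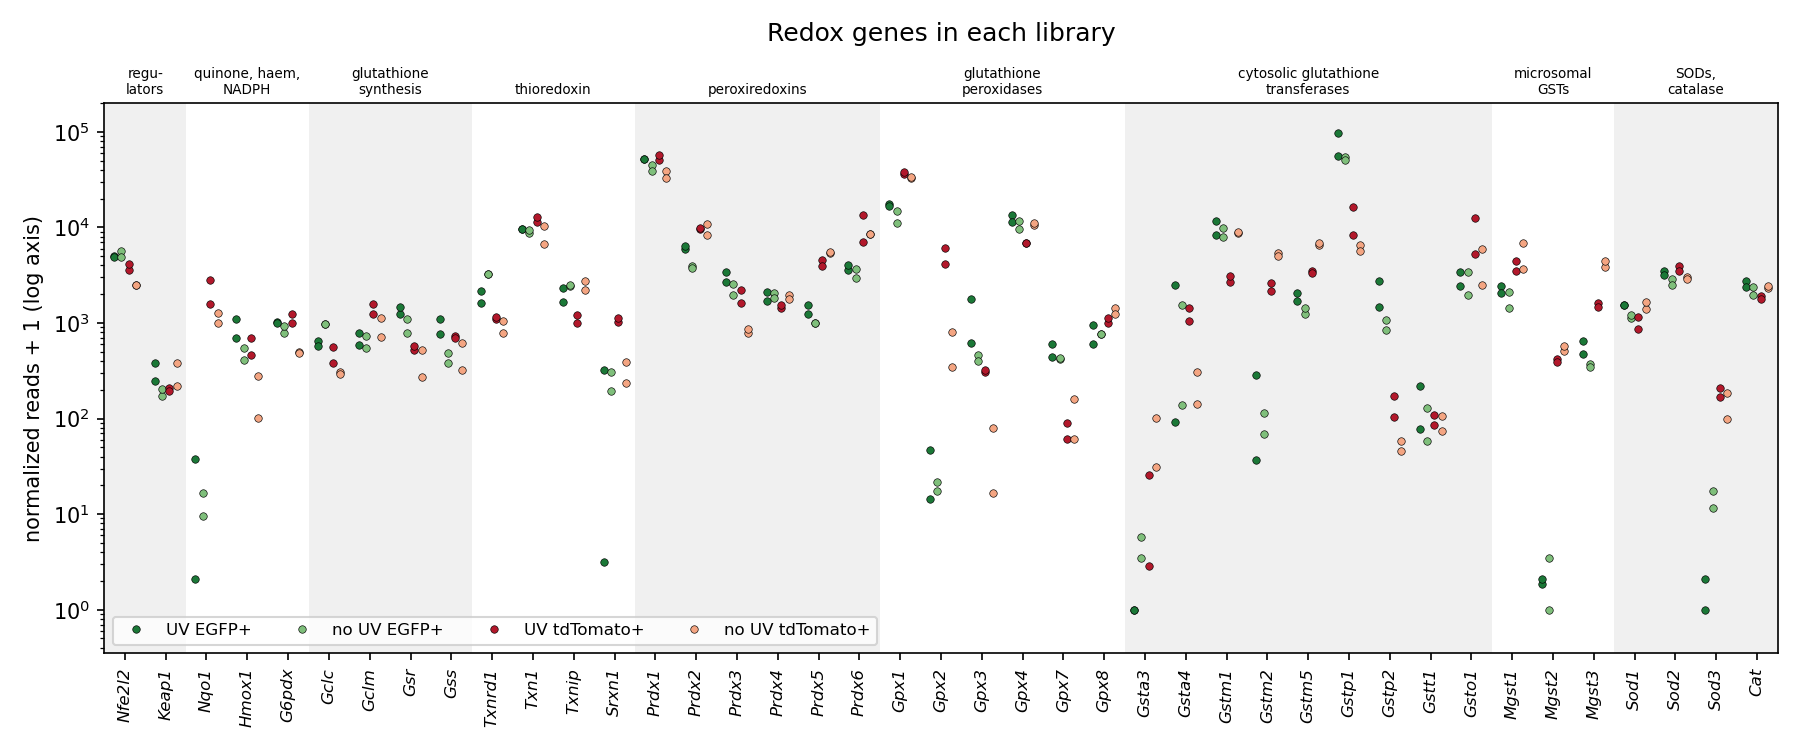
The 41 redox genes grouped by role, with 1 point a library, as normalized reads + 1 on a log axis. Gstp1 and Prdx1 hold the highest points in EGFP+ libraries, and Mgst2, Sod3, Gsta3, Nqo1 and Gpx2 have their EGFP+ points near the bottom.

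Further genes of the pathway also went both ways. Of 31 other NRF2 targets, 6 were higher and 14 lower in EGFP+ cells, beside 9.66% and 19.2% of all genes tested, with a median of -0.44 log2 units. Aldh3a1, an aldehyde dehydrogenase of epithelia, averaged 14.2 ± 16.1 normalized reads in EGFP+ cells and 6195 ± 2756 in tdTomato+ cells (SD, n = 4 each; -9.02 ± 0.51, limma adjusted p = 8.22e-06). Ftl1, the ferritin light chain that stores iron, averaged 91737 ± 12450.2 normalized reads in EGFP+ cells and 44574 ± 2698 in tdTomato+ cells (1.03 ± 0.09, limma adjusted p = 8.35e-05). Slc3a2, a subunit that the cystine importer shares with other amino acid transporters, averaged 17578 ± 2571 normalized reads in EGFP+ cells and 6481 ± 2117 in tdTomato+ cells (1.49 ± 0.13, limma adjusted p = 9.19e-05). Ftl1 and Slc3a2 were thus higher in EGFP+ cells, and Aldh3a1 was lower.

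Other glutathione enzymes gave 3 higher and 9 lower of 24 tested, beside 9.66% higher and 19.2% lower over all genes tested, the shares against which the next lists are read too. Gsta1, an alpha class transferase, averaged 446 ± 149 normalized reads in EGFP+ cells and 14.4 ± 10.7 in tdTomato+ cells (5.17 ± 0.47, limma adjusted p = 0.000106). Ggct, which acts in glutathione breakdown, averaged 123 ± 30.2 normalized reads in EGFP+ cells and 1352 ± 307 in tdTomato+ cells (-3.45 ± 0.25, limma adjusted p = 3.12e-05). Of 19 other thioredoxin, glutaredoxin and repair genes, 1 was higher and 5 lower. They included Msrb3, a methionine sulfoxide reductase, at 7.75 ± 10 normalized reads in EGFP+ cells and 460.4 ± 102 in tdTomato+ cells (-6.66 ± 0.56, limma adjusted p = 7.46e-05). Of 22 sources of reactive oxygen, 2 were higher and 9 lower. Cyba, a subunit of NADPH oxidases, averaged 2019 ± 481 normalized reads in EGFP+ cells and 490.1 ± 209 in tdTomato+ cells (2.12 ± 0.18, limma adjusted p = 7.34e-05). Xdh, xanthine dehydrogenase, averaged 8.29 ± 9.39 normalized reads in EGFP+ cells and 566 ± 412 in tdTomato+ cells (-6.60 ± 0.54, limma adjusted p = 6.5e-05).

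By treatment arm, 18 of the 41 genes differed between EGFP+ and tdTomato+ cells in UV mice (17.9% of all genes tested) and 22 in mice without UV (19.2%). In UV mice 7 were higher (5.03% of all genes tested) and 11 lower (12.9%), and in mice without UV 10 were higher (6.67%) and 12 lower (12.5%). Both EGFP+ libraries were above both tdTomato+ libraries for 17 genes in UV mice (18.9% of all genes tested) and 12 in mice without UV (23.7%), and below them for 18 (33.7%) and 16 (34.2%). In UV mice quantile normalization gave 10 higher and 11 lower, and rescaling without the 20 most abundant genes 12 higher and 10 lower. The split of all genes there moved the same way, from 909 higher and 2331 lower. It became 1378 higher and 1674 lower with quantile normalization, and 1253 higher and 1980 lower with the rescaling. Gclc, Nfe2l2, Txnrd1, Prdx3, Gpx3, G6pdx and Mgst1 passed in mice without UV alone, and Gstm1, Gpx4 and Txnip in UV mice alone. The difference between the arms equals the difference between the UV changes of the 2 populations, for which none of these 10 genes passed (limma adjusted p of 0.162 for Gstm1 to 0.636 for Mgst1). Without mouse 1, fewer genes passed in both arms. Mouse 1 is not among the UV mice, so the differences in UV mice did not move. The calls lost in mice without UV were those of Gstp1, Gstp2, Gpx2, Nfe2l2, Gclc, Prdx3, Nqo1, Prdx6, Gpx3, Gpx7, Gstm2, Sod3 and G6pdx. Without 1 library, the counts ran from 9 (without UV tdTomato replicate 1 or replicate 2) to 19 in UV mice, and from 13 (without no UV EGFP replicate 1 or replicate 2) to 23 in mice without UV.

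None of the 41 genes passed the test for a UV change in melanocytes. In EGFP+ cells limma called 0 of 41 at adjusted p under 0.05, beside 0.0166% of all genes tested (3 genes). At unadjusted p under 0.05 there were 10 of 41, beside 1875 of the 18070 genes tested. edgeR and DESeq2 also called 0 of the 41. In 19 genes both UV EGFP+ libraries were above both no UV EGFP+ libraries (12.7% of all genes tested), and in 5 both were below (20.7%). The median UV difference of the 41 genes was 0.24 log2 units, against -0.11 over all genes tested, and quantile normalization moved the median of all genes by 0.27.

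The smallest p in melanocytes belonged to Prdx2, and its UV EGFP+ libraries lay above its no UV EGFP+ libraries by 0.68 ± 0.17 log2 units (limma adjusted p = 0.252). Sod3 gave 1 read in UV EGFP+ and 31 in no UV EGFP+ libraries, a ratio of no UV to UV of 29.15 (95% counting interval 4.859 to 1188), with limma adjusted p = 0.298. Txnrd1 and Gclc were lower in both UV EGFP+ libraries, by -0.80 ± 0.23 and -0.68 ± 0.28 (limma adjusted p = 0.305 and 0.457), and Gss was higher by 1.10 ± 0.36 (adjusted p = 0.362). None of these 5 passed the test. The 95% interval of Nfe2l2 was -0.46 to 0.28 and that of Hmox1 was -0.27 to 2.03 log2 units.

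Replicates of some genes were far apart. Nqo1, Gpx2, Gstm2, Sod3, Gpx3, Srxn1, Gstt1 and Gsta4 differed more than 2-fold between the 2 UV EGFP+ libraries, on the log2(normalized reads + 1) scale. The same was true of 3 genes in no UV EGFP+, 2 in UV tdTomato+ and 7 in no UV tdTomato+ libraries. In each group the share was smaller than over all genes tested. It was 19.5% against 32.6% in UV EGFP+ and 7.32% against 22.4% in no UV EGFP+ libraries. In UV tdTomato+ libraries it was 4.88% against 20.9%, and in no UV tdTomato+ libraries 17.1% against 33.3%. UV EGFP replicate 2 also had the fewest detected genes, 11186. Without UV EGFP replicate 1, which leaves replicate 2 as the lone UV EGFP+ library and assumes that it varies like the other groups, 2 genes passed. They were Srxn1 (-6.27, limma adjusted p = 0.000996) and Nqo1 (-2.61, adjusted p = 0.0316).

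**Figure D4:**
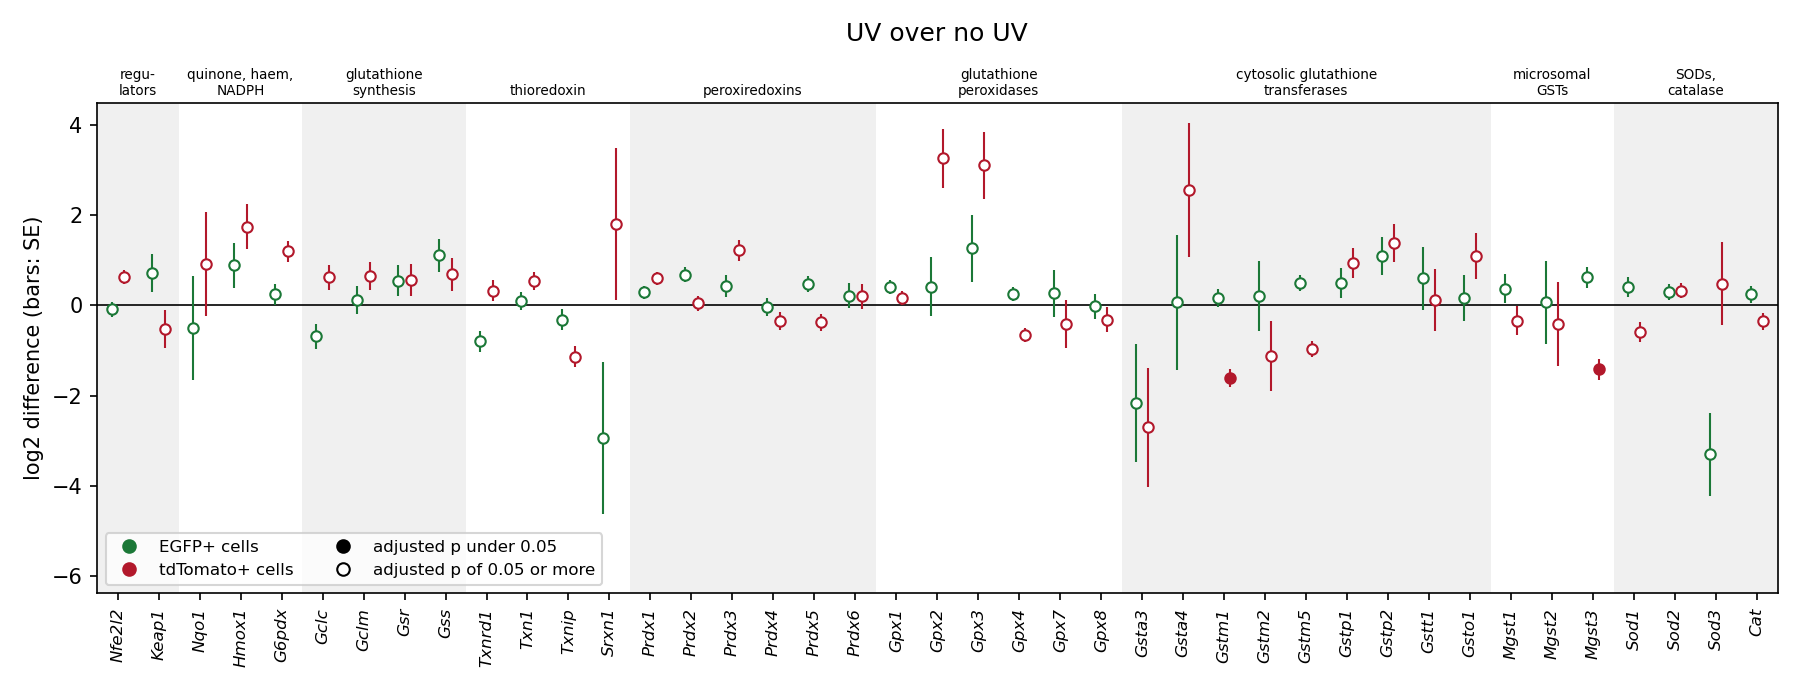
Log2 differences of UV over no UV (vertical axis, bars are SE) for the 41 redox genes, in EGFP+ cells (green) and in tdTomato+ cells (red). The only filled points, which passed limma's test at adjusted p under 0.05, are Gstm1 (-1.62) and Mgst3 (-1.42) in tdTomato+ cells.

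In the other skin cells 2 glutathione transferases were lower with UVB. In tdTomato+ cells limma called 2 of 41 genes, beside 0.559% of all genes tested (0.349% higher and 0.21% lower). Gstm1 had 2682 and 3134 normalized reads in UV tdTomato+ libraries, against 8831 and 8948 in no UV tdTomato+ libraries. Both UV libraries were well below both no UV libraries, by -1.62 ± 0.20 log2 units (limma adjusted p = 0.0211). Mgst3 had 1627 and 1474 normalized reads in UV tdTomato+ libraries, against 3877 and 4453 in no UV tdTomato+ libraries. It too was lower in both (-1.42 ± 0.24, limma adjusted p = 0.0476), and lost its call with replicate number as a block, with a pseudocount of 0.1 and without the filter. Both calls failed in the same 6 of 8 leave-one-out fits, and also without mouse 1. The 6 included the absence of UV EGFP replicate 2 and of either no UV EGFP replicate. Those libraries are outside this comparison and enter it only through the shared estimate of the spread. Over all alternatives Gstm1 ran from -1.73 to -1.50 and Mgst3 from -1.52 to -1.32. DESeq2 called 10 of the 41 genes and edgeR 5, Gstm1 and Mgst3 among them in both.

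More of the genes lay apart between the arms in tdTomato+ cells without passing limma's test. Both UV tdTomato+ libraries were above both no UV libraries for 20 of the 41 genes (21.6% of all genes tested) and below them for 14 (24.5%). An unadjusted p under 0.05 was found for 16 of the 41, beside 2429 of the 18070 genes tested. The median UV difference was 0.32 log2 units, against -0.09 over all genes tested. Gpx2 had 6104 and 4126 normalized reads in UV tdTomato+ libraries, against 798 and 344 in no UV tdTomato+ libraries (3.26 ± 0.65, limma adjusted p = 0.0823; called by DESeq2). The Gpx2 values of the 2 arms were far apart. Gstm5 had 3519.5 and 3340.1 normalized reads in UV tdTomato+ libraries, against 6576 and 6779.7 in no UV tdTomato+ libraries (-0.96 ± 0.18, limma adjusted p = 0.0664; called by edgeR and DESeq2). G6pdx had 1249 and 1005 normalized reads in UV tdTomato+ libraries, against 499 and 479.6 in no UV tdTomato+ libraries (1.19 ± 0.23, limma adjusted p = 0.076; called by DESeq2). Both genes were cleanly split by treatment. Prdx3 had 1632 and 2226 normalized reads in UV tdTomato+ libraries, against 784 and 861 in no UV tdTomato+ libraries (1.21 ± 0.24, limma adjusted p = 0.0815; called by edgeR and DESeq2). Txnip had 1218 and 1008 normalized reads in UV tdTomato+ libraries, against 2204 and 2733 in no UV tdTomato+ libraries (-1.15 ± 0.23, limma adjusted p = 0.0845; called by edgeR and DESeq2).

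Neither Nfe2l2 nor Keap1 nor Hmox1 passed the test between UV and no UV tdTomato+ cells. Nfe2l2 was at 0.63 ± 0.16 log2 units (limma adjusted p = 0.15), with 3618 and 4158 normalized reads in UV tdTomato+ libraries, against 2507 and 2508 in no UV tdTomato+ libraries. Hmox1 was at 1.74 ± 0.50 (limma adjusted p = 0.189), with 697 and 456 normalized reads in UV tdTomato+ libraries, against 279 and 101 in no UV tdTomato+ libraries. Keap1 was at -0.52 ± 0.42 (limma adjusted p = 0.609), and both UV libraries lay below both without UV. Nqo1, Gclc, Gclm, Gsr, Txnrd1 and Srxn1 lay above in both UV libraries but did not pass, with differences of 0.32 to 1.80 and limma adjusted p of 0.382 or more. On the list of other NRF2 targets 1 of 31 genes passed, beside 0.559% of all genes tested, and no gene of the other 4 pathway lists did. It was Akr1b8, an aldo-keto reductase, with 2286 and 2211 normalized reads in UV tdTomato+ libraries, against 496 and 236 in no UV tdTomato+ libraries (2.71 ± 0.45, limma adjusted p = 0.0476). The Akr1b8 call was lost in 11 of 19 alternatives. They were 7 of 8 leave-one-out fits (highest adjusted p 0.322, without UV tdTomato replicate 1), the replicate number as a block (0.0628), a pseudocount of 0.1, no filter on low values and the rescaling without the 20 most abundant genes.

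Cell type markers of the tdTomato+ sort also differed between the arms. The 8 melanocyte markers summed to 23228 and 44454 normalized reads in UV tdTomato+ libraries, against 5571 and 2616 in no UV tdTomato+ libraries, and 5 of 8 were called higher. The 7 sebocyte markers summed to 2842 and 1778 in UV tdTomato+ libraries, against 4235 and 11263 in no UV tdTomato+ libraries, with 1 called lower. T and NK cell markers summed to 125.5 and 1.86 in UV tdTomato+ libraries, against 838.2 and 1185 in no UV tdTomato+ libraries, with 0 of 4 called. Fibroblast markers summed to 8276 and 11772 in UV tdTomato+ libraries, against 17429 and 14716 in no UV tdTomato+ libraries, with 0 of 6 called. The 8 keratinocyte markers summed to 272861 and 246776 in UV tdTomato+ libraries, against 274518 and 345572 in no UV tdTomato+ libraries, with 2 called lower. Macrophage and dendritic cell markers summed to 5705 and 1545 in UV tdTomato+ libraries, against 10125 and 1676 in no UV tdTomato+ libraries, with 1 of 6 called lower. Neutrophil markers summed to 1795 and 1188 in UV tdTomato+ libraries, against 7869.8 and 2331 in no UV tdTomato+ libraries, and endothelial markers to 565 and 76.0 in UV tdTomato+ libraries, against 62.6 and 34.3 in no UV tdTomato+ libraries, with 0 of 4 called in each list. The part of these shifts in the UV values of tdTomato+ cells was not tested.

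Whether UVB acted differently on the 2 populations was tested as the UV difference in EGFP+ cells minus that in tdTomato+ cells. limma called 0 of 41 genes, beside 0.00553% of all genes tested (1 gene). An unadjusted p under 0.05 was found for 15 of the 41, beside 1814 of the 18070 genes tested. Gstm1 (1.78 ± 0.28, limma adjusted p = 0.162), Mgst3 (2.04 ± 0.33, adjusted p = 0.183) and Gstm5 (1.44 ± 0.25, adjusted p = 0.204) had the smallest p. Their own UV differences were 0.16 ± 0.20, 0.62 ± 0.24 and 0.48 ± 0.18 in EGFP+ cells, and -1.62, -1.42 and -0.96 in tdTomato+ cells. edgeR called Gstm1 and Mgst3 and DESeq2 called Gstm1, Mgst3 and Gstm5. In limma 5 genes passed without UV EGFP replicate 1 and 2 without no UV tdTomato replicate 1. For Nfe2l2 the difference between the UV changes was -0.72 ± 0.23 (limma adjusted p = 0.382), and for Keap1 it was 1.24 ± 0.59 (adjusted p = 0.527).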

How the data were processed

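RNA of sorted EGFP+ and tdTomato+ skin cells of 4 mice gave 8 TruSeq RNA v2 libraries, poly(A) selected, per the labels' protocols. The build was mm10, and the tools were DESeq2 1.14.1, Cufflinks 2.2.1, TopHat2 2.0.12 and FastQC, per the submitters' processing notes. How reads were counted per gene, and with which annotation, is not given in the sources used here, and the kit does not mark strand. The deposited signal values are normalized reads, per the file headers. Each is a whole number of reads over a size factor (0.701 to 1.20). Whole reads were recovered for 195368 of 195368 values (100%, within 0.01 of a whole number). The deposited log2 fold changes, test score and p-value columns are the authors' DESeq2 comparison of EGFP+ with tdTomato+ cells, per the file headers, and were only set beside the values computed here.

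Values were log2-transformed after adding 1 and fitted with limma 3.58.1 (R 4.3.3), with a mean per group, all 8 libraries in 1 fit and a trended prior (4 residual degrees of freedom, median 8.4 after moderation). The 18070 genes that averaged 1 normalized read or more in some group entered the test, with Benjamini-Hochberg adjustment over all of them and a threshold of 0.05. The step was also run on simulated counts in which 200 genes with many reads were changed. Those libraries were drawn independently, so the run covers neither genes with few reads nor pairing by mouse. The table is normalized, so limma was the main test, and edgeR 4.0.16 and DESeq2 1.42.0 on recovered reads were alternatives, beside other pseudocounts, filters and scalings, left-out libraries and a replicate block. EGFP+ and tdTomato+ cells of a mouse are a pair by the labels. Across genes their deviations from the group means correlated at 0.0562 in UV mice and 0.0873 in mice without UV, and those of libraries with the same replicate number in different mice at 0.0549 in EGFP+ and 0.0759 in tdTomato+ cells. The p-values rest on 1 estimate of the spread per gene, pooled over the 4 groups of 2 libraries and moderated by the trend over all genes. In the main test the EGFP+ and tdTomato+ libraries of a mouse count as separate, and each arm held only 2 mice.

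The 41 genes, the pathway lists and the marker lists were chosen with earlier results of these data known. Every library value is given for those of the 41 genes called in at least 1 comparison. From a pathway list at most the 3 genes with the smallest p in a comparison are named. Other genes of the 41 given by library were chosen after their values were seen. For groups of 1 to 3 reads an exact 95% interval of the ratio is given, which covers counting error only. Shared sequence is the share of 50-base windows of a gene's transcripts found in another gene of GENCODE M21, and levels per kilobase use the union of its exons. Promoter sequences are from RefSeq (GRCm38.p6).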

Additional observations from a re-analysis of the deposited data

Results flagged for a closer look

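Within each sorted population of 4 libraries, a library was marked where its gap to the nearest other library exceeded Dixon's 95% critical share of the range for 4 libraries. Of 82 sets tested, 6 were marked, and chance marks about 1 in 20. UV EGFP replicate 2 stood apart in 3 of them, with 2.16 normalized reads of Srxn1, 1638 of Txnip and 596.0 of Gpx7. UV EGFP replicate 1 stood apart for Gstp1 at 97729 normalized reads. No UV EGFP replicate 1 did so for Nfe2l2 at 5702, and no UV tdTomato replicate 2 for Gsr at 268.3.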

How the results depend on the processing

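Of the 26 genes called over all mice, none changed direction under any alternative run. Counts of the 41 called, with 1 library left out, ran from 21 to 27 over all mice, 9 to 19 in UV mice, 13 to 23 in mice without UV, 0 to 2 for UV in EGFP+ cells, 0 to 5 for UV in tdTomato+ cells and 0 to 5 for the difference between the UV changes. Without mouse 1 they were 15, 2, 9, 0, 0 and 0. With mouse as a replicate block they were 27, 20 and 20 for the population comparisons and 0 for the difference between the UV changes, and all genes called there numbered 5221, 3190, 3288 and 1. With replicate number as the block, 0 (EGFP+) and 1 (tdTomato+) of the 41 and 2 and 70 of all genes were called for UV. Replicate numbers of different treatment arms share only a number. For UV in tdTomato+ cells, where 2 of the 41 were called, a pseudocount of 0.1 or no filter gave 1, a pseudocount of 10 gave 5, quantile normalization 7, only the libraries compared 7, edgeR 5 and DESeq2 10. For the difference between the UV changes edgeR gave 2 and DESeq2 3.

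Counts over all genes, with 1 library left out, ran from 3463 to 6594 over all mice, 993 to 4952 in UV mice and 1398 to 4494 in mice without UV. In UV mice they were 1992 with only the libraries compared and 1119 without mouse 1. For UV in EGFP+ cells the count was 3, and 0 to 1604 with 1 library left out, 1 and 0 with pseudocounts of 0.1 and 10, 16 with quantile normalization, 0 with only the libraries compared, 818 without mouse 1, 96 with edgeR and 361 with DESeq2. For UV in tdTomato+ cells it was 101, and in the same order 0 to 1772, 29 and 235, 218, 183, 2006, 188 and 629. For the difference between the UV changes it was 1, and 0 to 1297 with 1 library left out, 0 with either pseudocount, without the filter or rescaled without the 20 most abundant genes, 14 with quantile normalization, 2064 without mouse 1, 53 with edgeR and 291 with DESeq2. The cause of these shifts was not tested.

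Values that changed sign were never called as reported. Over all mice Keap1 was at 0.17 with quantile normalization, 0.25 rescaled, 0.031 with edgeR and -0.21 to 0.19 with 1 library left out. Txn1 was at 0.22, 0.15 and -0.27 to 0.049 (quantile normalization, rescaled, 1 library left out). Gsta4 was at 0.21 with quantile normalization, 0.16 rescaled, 1.05 with edgeR, 1.00 with DESeq2 and -1.29 to 1.10 with 1 library left out. Sod2 was at 0.062 with quantile normalization and 0.12 rescaled. With 1 library left out, Gss ran from -0.063 to 0.40 and Gstt1 from -0.18 to 0.56. For UV in EGFP+ cells, Nqo1 was at 0.059 with a pseudocount of 10, 1.18 with quantile normalization, 0.66 with edgeR, 0.65 with DESeq2 and -2.61 (without UV EGFP replicate 1) to 1.58 (without replicate 2), and Srxn1 ran from -6.27 to 0.41 with the same libraries left out.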
